A study of Mus musculus with 44 samples.

Results

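The genes of Polycomb repressive complex 2 (PRC2) were followed in ribosome-bound mRNA from the hippocampus of young exercised and sedentary mice. The set was chosen by name from the Ensembl identifiers of the count table. It holds the catalytic subunits Ezh1 and Ezh2, the core subunits Eed, Suz12, Rbbp4 and Rbbp7, and the accessory subunits Jarid2, Epop, Mtf2 and Phf19. All 10 were found among the 55335 genes of the table, had counts in every library and passed the filter on low counts in each comparison.

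The mice were male and carried Emx1-NuTRAP, a cassette that tags ribosomes and nuclear envelopes in cells in which Cre recombinase has been made from the Emx1 gene. That Cre acts from embryonic progenitors onward, so that the tagged cells are mostly excitatory neurons but need not be neurons only. Early-life exercise (ELE) mice had a running wheel in the cage between postnatal days 21 and 41, while sedentary mice of the same genotype and age were kept without one. Both were pair-housed and were killed on the day after that period. Translating ribosome affinity purification (TRAP) was performed in either of 2 ways. In simultaneous isolation (SIT), nuclei and ribosomes came from a single homogenate of both hippocampi. In separate isolation, the ribosomes came from the left or the right hippocampus and the other hemisphere was used for nuclei. The SIT groups had 4 ELE and 4 sedentary libraries, and each hemisphere had 3 ELE and 3 sedentary libraries, each from 1 mouse. The study compared 3 ELE and 2 sedentary SIT libraries, which are the SIT groups used here unless all 8 are named. That leaves 17 libraries.

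PRC2 places methyl groups on lysine 27 of histone H3, a mark of repressed genes. Ezh1 or Ezh2 carries out the methylation, Suz12 is the scaffold, and Eed reads the finished mark and stimulates the enzyme. Accessory subunits divide the complex into forms: Mtf2, Phf19 and Epop belong to one, and Jarid2 to the other. In many tissues Ezh2 is high in dividing cells and Ezh1 persists in cells that have left the cell cycle, as neurons have.

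The libraries held between 45895097 and 65767802 counts. The label gives the cells as neurons. The summed level of 8 excitatory neuron markers was between 7071 and 10947 CPM (counts scaled to a common library size) over the 17 libraries. The sum of 8 astrocyte markers was between 4271 and 9599 CPM, and that of 8 oligodendrocyte lineage markers between 2381 and 3904 CPM. The sum of 8 microglia markers was between 6.99 and 13.0 CPM. Of the 3 SIT libraries the study did not compare, both sedentary ones (NT7.2.3 and NT7.2.4) had 8.64% and 9.64% of their counts on mitochondrial genes, against 0.0704% to 0.523% in the 17 libraries. The remaining one, ELE mouse NT6.304, had a summed level of 8 inhibitory neuron markers of 895 CPM, and NT7.2.3 and NT7.2.4 had 879 and 907 CPM. In the 17 libraries that sum was between 43.1 and 368 CPM.

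Levels per length spread the members over a wide range, with Ezh2 and Phf19 at the bottom in every library. CPM were divided by the exonic length of each gene in kilobases (CPM per kb). Over the 17 libraries, Rbbp7 had the highest mean, 33.0 ± 2.67 CPM per kb (SD, n = 17). Rbbp7 and its relative Rbbp4 are histone-binding proteins that PRC2 shares with other chromatin complexes. Epop, which links PRC2 to Elongin B and C, came next at 22.9 ± 5.54 CPM per kb. Rbbp4 followed with 9.73 ± 0.567 CPM per kb, Ezh1 with 9.35 ± 1.30 CPM per kb and Suz12 with 7.07 ± 0.644 CPM per kb. Mtf2, a Polycomb-like protein that binds CpG-rich DNA, had 3.29 ± 0.507 CPM per kb. Eed had 2.62 ± 0.240 CPM per kb, and Jarid2, a DNA-binding accessory subunit, 2.61 ± 0.251 CPM per kb. The lowest levels were those of Ezh2, 0.408 ± 0.110 CPM per kb, and of Phf19, a second Polycomb-like protein, 0.175 ± 0.0465 CPM per kb.

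**Figure D1:**
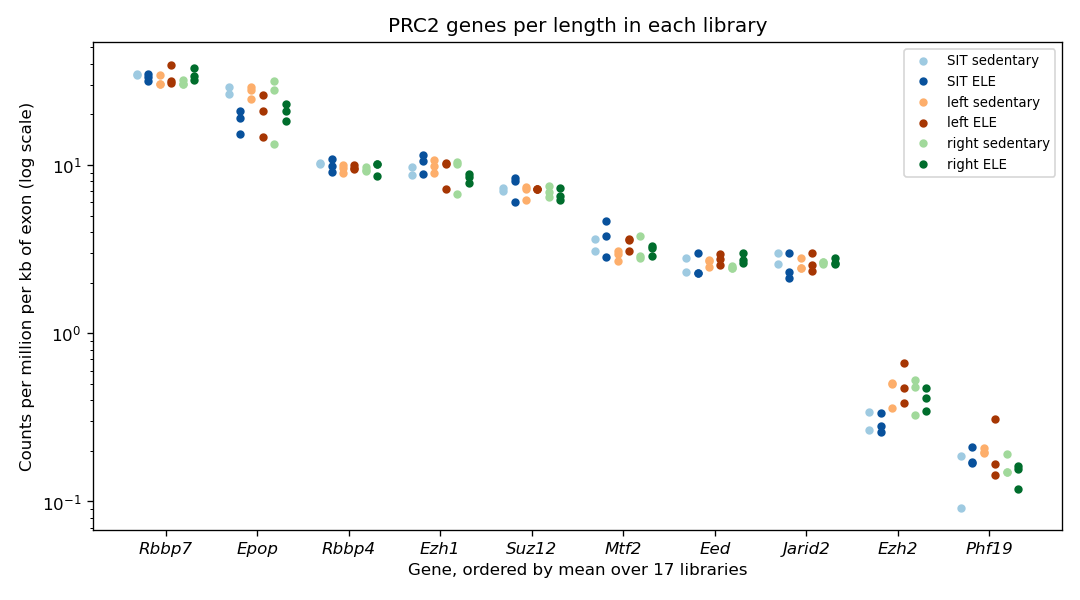
Level of each PRC2 gene in CPM per kilobase of exon (log axis) in the 17 libraries, with genes ordered by their mean and points colored by group. Ezh2 and Phf19 lie below the other 8 genes in every library.

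Some neighbors in this order were not separated. Rbbp4 exceeded Ezh1 in 9 of 17 libraries, and Eed exceeded Jarid2 in 9 of 17. Rbbp7 exceeded Epop in 16 of 17 and Ezh1 exceeded Suz12 in 16 of 17. Epop exceeded Rbbp4 in 17 of 17 libraries, by 1.46-fold to 3.24-fold, and the levels of the pair did not overlap. Suz12 exceeded Mtf2 by 1.73-fold to 2.74-fold, and Jarid2 exceeded Ezh2 by 3.78-fold to 10.7-fold, also without overlap. Ezh2 exceeded Phf19 in 17 of 17 libraries by 1.25-fold to 4.67-fold, although the ranges of the pair met. When the longest transcript of each gene was used as its length, the values of 9 members moved by more than the SD over libraries. That of Epop, with 1 annotated transcript, did not. Mtf2 and Eed then exchanged places.

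The members lie on 8 chromosomes of the mouse genome (build GRCm38, coordinates from GENCODE). Ezh1 (ENSMUSG00000006920.14) is at chr11:101191115-101226463, Suz12 (ENSMUSG00000017548.15) at chr11:79993106-80034123 and Epop (ENSMUSG00000043439.5) at chr11:97627389-97629702. Ezh2 (ENSMUSG00000029687.16) is at chr6:47530139-47595341, Eed at chr7:89954654-89980983 and Rbbp4 at chr4:129307100-129335370. Rbbp7 is at chrX:162760402-162779092, Jarid2 at chr13:44729474-44921643, Mtf2 at chr5:108065674-108109004 and Phf19 at chr2:34893757-34914026. No exon of a member shares bases with an exon of another gene on the same strand. The pairs Ezh1 and Ezh2, and Rbbp4 and Rbbp7, have related sequences, and how reads that align to several places were counted is not given in the sources used here.

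The members varied by different amounts between libraries. The coefficient of variation of the CPM over the 17 libraries was 5.83% for Rbbp4, 8.11% for Rbbp7, 9.12% for Suz12, 9.15% for Eed and 9.59% for Jarid2. It was 13.9% for Ezh1 and 15.4% for Mtf2. The 3 most variable members were Epop with 24.2%, Phf19 with 26.5% and Ezh2 with 27.0%. Ezh2 and Phf19 were also the members with the fewest counts, between 91 and 235 per library for Ezh2 and between 24 and 103 for Phf19. Epop, in contrast, had between 1521 and 4018 counts per library.

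Whether exercise changed the expression of the PRC2 genes was asked in SIT, left and right libraries. A gene was called, by the study's rule, if its unadjusted p was under 0.05 and its log2 fold change exceeded 0.39 in either direction. In SIT libraries 1 of 10 members was called, Epop, which fell in ELE, and 3.65% of all 18238 genes tested were called. The paper had already named Epop among the genes lowered by ELE, from these same SIT libraries, so the call is no independent result. In left libraries 0 of 10 members were called (2.07% of all genes) and in right libraries 0 of 10 (1.97%) by edgeR's quasi-likelihood test, with 0 members at an unadjusted p under 0.05 in either. With DESeq2, 1 member was called in left libraries, Epop (2.04% of all genes), and 0 in right libraries (1.87%). With left and right libraries in a single fit, 6 against 6, 0 of 10 members were called by edgeR (1.97% of all genes) and 0 of 10 by DESeq2 (2.11%). The lowest Benjamini-Hochberg adjusted p of a member in these 4 edgeR fits was 0.905. The median log2 fold change of the 10 members was -0.03 in SIT, 0.06 on the left and -0.03 on the right. Over all genes tested it was 0.00, 0.00 and -0.00.

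Epop was the member with the lowest p in SIT libraries. It measured 35.5, 44.2 and 48.5 CPM in the ELE libraries and 66.9 and 60.9 CPM in the sedentary libraries. Every ELE library was below both sedentary ones. Both sedentary mice were numbered NT6, and of the ELE mice the one with 35.5 CPM was numbered NT6 and the other 2 TG7.4. For these TG7.4 mice, the number and exercise cannot be told apart. Its log2 fold change was -0.58 ± 0.14 (SE, 95% interval -0.90 to -0.26), with an unadjusted p of 0.00246 and an adjusted p of 0.905 by edgeR's quasi-likelihood test. Over the 11 alternatives to that fit, the log2 fold change lay between -1.02 and -0.26 and the adjusted p between 0.00689, without a filter on low counts, and 1.0. The lowest value, -1.02 ± 0.17, came from the mice numbered NT6, 2 against 2, a comparison that includes the ELE mouse NT6.304. The call was lost in 1 of the 11, that with all 8 SIT libraries. With those, ELE mouse NT6.304 added 28.2 CPM, and the sedentary pair (NT7.2.3, NT7.2.4) added 22.7 and 36.1 CPM, below 2 or more of the ELE libraries. With them the value was -0.26 ± 0.31, with an adjusted p of 0.810. No member was called by edgeR with all 8 libraries, where 7.70% of all genes were, and 0 members had an unadjusted p under 0.05.

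In left libraries Epop measured 60.6, 34.0 and 48.5 CPM in ELE and 64.4, 56.9 and 67.7 CPM in sedentary mice, so that the groups overlapped by 1 ELE library. In this order the mice of both groups are numbered TG7.3, TG9.1 and TG9.2, and within each number the ELE library was the lower. With the number as covariate the log2 fold change was -0.43 ± 0.14, with an unadjusted p of 0.0173 and an adjusted p of 0.911 by edgeR, and Epop was called (1.77% of all genes). Without the covariate it was not called, and the log2 fold change was -0.39 ± 0.19 (95% interval -0.84 to 0.05), with an unadjusted p of 0.0755 and an adjusted p of 0.960 by edgeR. Without TG7.3.2, the ELE mouse with the highest level, the value without covariate was -0.62 ± 0.16 with an adjusted p of 0.643, and Epop was called (5.18% of all genes). Without TG9.1.4, the ELE mouse with the lowest level, it was -0.20 ± 0.12. In right libraries Epop measured 42.6, 53.2 and 48.2 CPM in ELE and 73.3, 31.0 and 65.0 CPM in sedentary mice. Here 2 sedentary libraries were above all ELE libraries and the other, mouse TG9.1.1, was below them all. Epop had a log2 fold change of -0.23 ± 0.26 (95% interval -0.80 to 0.34), with an adjusted p of 1.0 by edgeR. With the mouse number as covariate it was -0.15 ± 0.27 and not called (1.71% of all genes). Without TG9.1.1 and without the covariate it was -0.53 ± 0.12 with an unadjusted p of 0.00105 and an adjusted p of 0.410, and Epop was then called (3.53% of all genes). Without TG7.3.3, the right sedentary mouse with the highest level, it was 0.00.

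With hemisphere as covariate, Epop had a log2 fold change of -0.31 ± 0.18 (95% interval -0.70 to 0.07), with an adjusted p of 0.911 by edgeR. Without TG9.1.1 it was -0.45 ± 0.12 with an adjusted p of 0.577, and Epop was called, beside 3.10% of all genes. A fit over all 17 libraries, with isolation and hemisphere as a covariate, was added after these values had been seen. It gave -0.39 ± 0.14 (95% interval -0.68 to -0.10), an unadjusted p of 0.0114 and an adjusted p of 0.529, and called 1 of 10 members, Epop, against 2.31% of all genes. The effect of exercise on Epop differed between SIT and separate isolation by -0.26 ± 0.31 on the log2 scale (95% interval -0.91 to 0.38, adjusted p 0.987 by edgeR). No member was called for that difference, against 4.26% of all genes.

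Markers of the choroid plexus were called lower in ELE in 3 of these comparisons, with 1 of 7 over both hemispheres. In SIT libraries 4 of 7 were called lower in ELE, and their summed level was between 130 and 576 CPM in ELE and between 593 and 674 CPM in sedentary libraries. In right libraries 5 of the 6 that could be tested were called lower, with sums of 17.3 to 44.0 CPM in ELE libraries. In right sedentary libraries the sums were 36.0, 85.7 and 1172 CPM, so that the high value was that of a single mouse, TG9.2.3. In left libraries 0 of 7 were called, and the sums were 26.3 to 1007 CPM and 31.5 to 1289 CPM. The right sedentary library with the highest Epop level, mouse TG7.3.3, had a sum of 36.0 CPM. That library had the highest summed level of 6 endothelial markers among the 17, 31.1 CPM, with 2.20 to 6.49 CPM in the others. Of these markers 3 of 6 were called lower in right ELE libraries and 1 of 6 over both hemispheres. In SIT libraries 1 of 8 inhibitory neuron and 1 of 8 oligodendrocyte lineage markers were called lower in ELE, and in each hemisphere 1 of 8 inhibitory neuron markers was called higher. Of the proliferating or immature neural markers 1 of 12 was called higher on the left, of the microglia markers 1 of 7 was called lower on the right, and of the striatal neuron markers 1 of 8 was called higher over both hemispheres. The excitatory neuron sum was between 7439 and 8112 CPM in SIT ELE and between 7071 and 7094 CPM in SIT sedentary libraries, with 0 of 8 markers called. The part of these markers in the levels of Epop was not tested. In such samples, fewer cells of a type and less RNA per cell cannot be told apart.

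**Figure D2:**
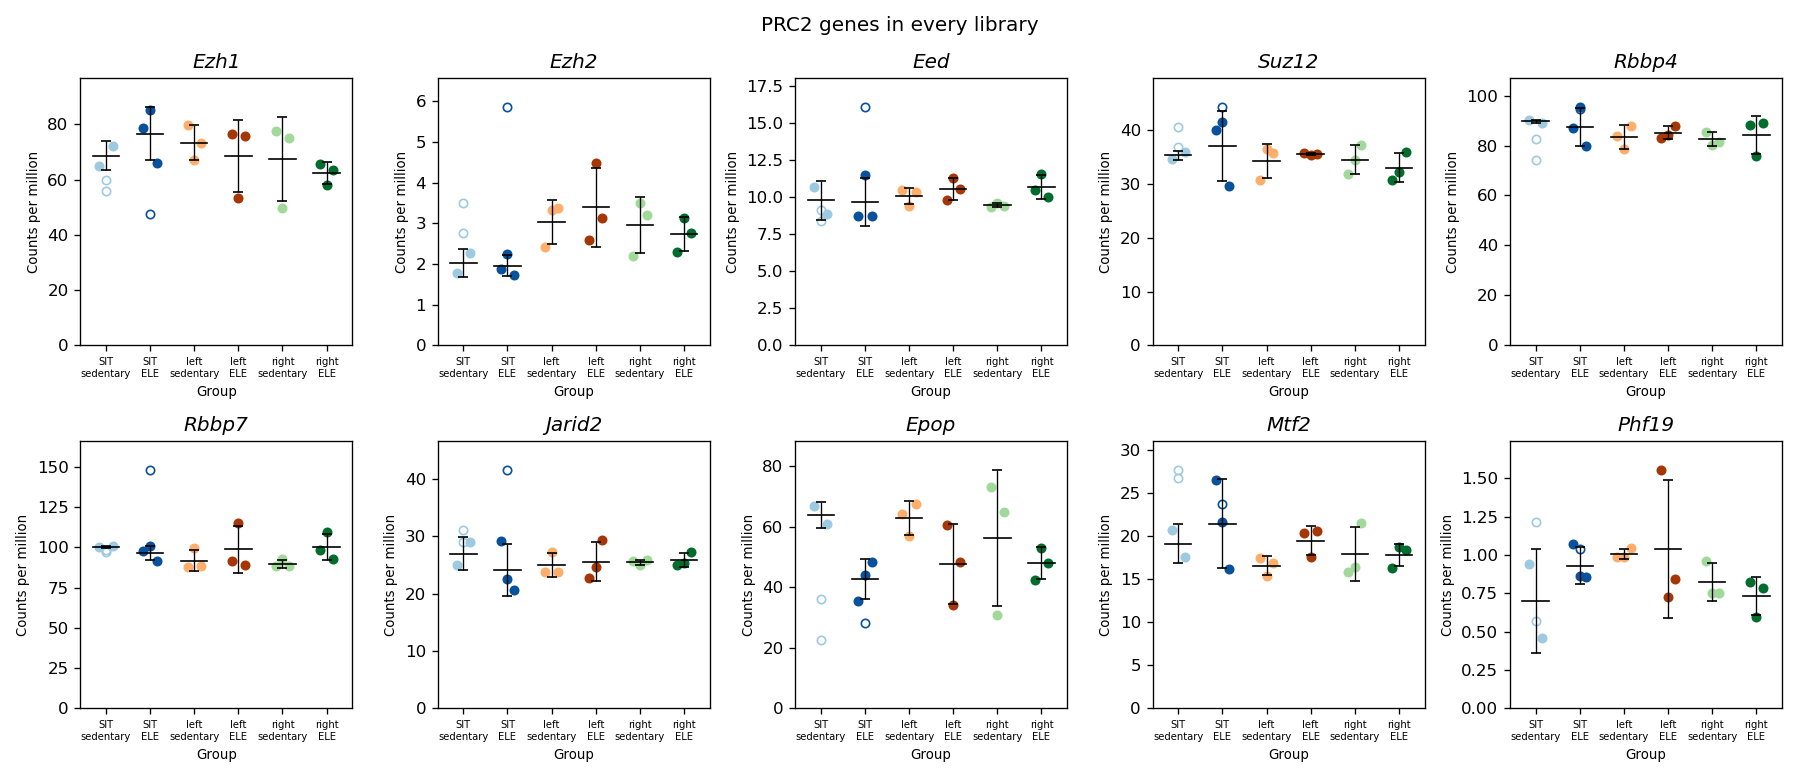
CPM of the 10 PRC2 genes in every library, by group. Filled points are the 17 libraries compared, open points the 3 SIT libraries that the study did not compare, and bars the mean and SD of the filled points. All 3 SIT ELE libraries compared lie below both SIT sedentary ones for Epop, and the open points lie lower still or among them.

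The catalytic subunits did not pass the test for exercise in any of the 3 pairs of groups. Ezh1 measured 78.8, 85.1 and 66.1 CPM in SIT ELE and 65.1 and 72.4 CPM in SIT sedentary libraries. It measured 76.4, 53.4 and 75.8 CPM in left ELE and 79.8, 67.1 and 73.3 CPM in left sedentary libraries. On the right it measured 65.7, 58.1 and 63.5 CPM in ELE and 77.7, 49.9 and 75.0 CPM in sedentary libraries. The groups overlapped in all 3 pairs. The log2 fold change of Ezh1 was 0.16 ± 0.13 in SIT, -0.09 ± 0.15 on the left and -0.11 ± 0.15 on the right. Left and right together gave -0.10 ± 0.11 (95% interval -0.35 to 0.14).

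Ezh2 measured 1.88, 2.24 and 1.74 CPM in SIT ELE and 1.78 and 2.27 CPM in SIT sedentary libraries. On the left it measured 2.58, 4.47 and 3.14 CPM in ELE and 2.41, 3.32 and 3.38 CPM in sedentary libraries. On the right it measured 2.29, 3.14 and 2.77 CPM in ELE and 2.19, 3.50 and 3.20 CPM in sedentary libraries. Again the groups overlapped in all 3 pairs. The intervals were wide for this gene of few counts. They gave -0.05 ± 0.37 (95% interval -0.88 to 0.77) in SIT libraries and 0.02 ± 0.18 (95% interval -0.36 to 0.41) with left and right together.

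Among the core subunits, with left and right libraries together, the log2 fold change was -0.00 ± 0.07 for Suz12 (95% interval -0.15 to 0.14) and 0.03 ± 0.05 for Rbbp4 (95% interval -0.08 to 0.14). That of Eed was 0.12 ± 0.08 (95% interval -0.05 to 0.29) and that of Rbbp7 0.13 ± 0.07 (95% interval -0.01 to 0.28). These 4 intervals lie inside the limit of 0.39 in both directions. So do those of Ezh1, Jarid2 and Mtf2, and those of Ezh2, Epop and Phf19 reach past it. With the mouse number as a further covariate, Rbbp7 had a log2 fold change of 0.13 ± 0.05. Its unadjusted p was then 0.0208 and its adjusted p 0.692 by edgeR, below the size limit for a call. No other member had an unadjusted p under 0.05 in that fit. In right libraries alone, the groups of Eed and Rbbp7 did not overlap. Rbbp7 measured 98.3, 109 and 92.9 CPM in right ELE and 88.3, 92.6 and 88.2 CPM in right sedentary libraries, a log2 fold change of 0.16 ± 0.09. Eed measured 10.5, 11.5 and 9.99 CPM in right ELE and 9.35, 9.62 and 9.41 CPM in right sedentary libraries, a log2 fold change of 0.18 ± 0.14. Groups did not overlap in 2 of 10 members there, against 7.66% of all genes tested.

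Among the other accessory subunits, Mtf2 in left libraries was the single member whose left groups did not overlap, where 10.7% of all genes did not. It measured 20.3, 17.6 and 20.6 CPM in ELE and 17.5, 15.4 and 16.9 CPM in sedentary libraries. All 3 ELE libraries were above the sedentary ones. The log2 fold change was 0.24 ± 0.12 (95% interval -0.03 to 0.51), with an unadjusted p of 0.0752 and an adjusted p of 0.960 by edgeR. In SIT libraries the groups of 1 member, Epop, did not overlap, against 22.1% of all genes. Jarid2 had a log2 fold change of -0.16 ± 0.17 in SIT, 0.04 ± 0.12 on the left and 0.03 ± 0.10 on the right. Phf19, the member with the fewest counts, had 0.41 ± 0.65 in SIT, 0.06 ± 0.39 on the left and -0.16 ± 0.43 on the right, and its intervals covered more than 1.79 log2 units in each.

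**Figure D3:**
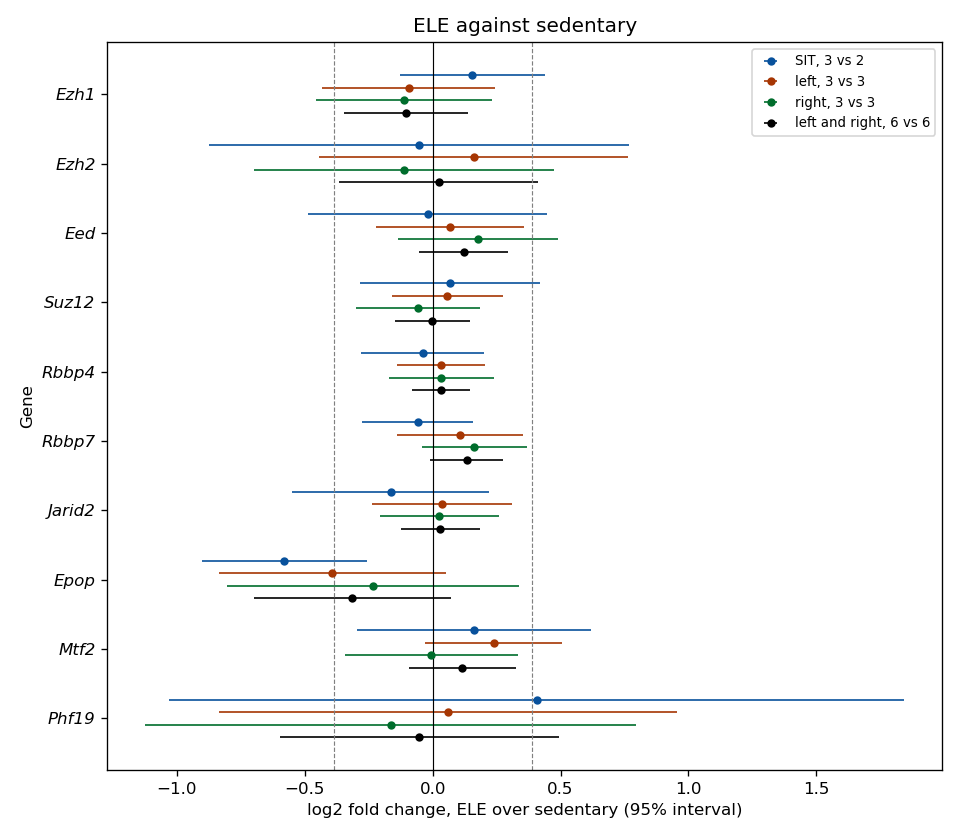
Log2 fold change of ELE over sedentary with its 95% interval for the 10 PRC2 genes, in SIT, left and right libraries and with left and right in a single fit. Dashed lines mark the threshold of 0.39 in both directions. The interval of Epop in SIT libraries, -0.90 to -0.26, is the single one plotted that does not reach 0.

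The balance of the catalytic subunits was described by the ratio of Ezh1 to Ezh2 in counts per kb. Ezh1 exceeded Ezh2 in every library. The ratio was 37.5, 34.1 and 34.2 in SIT ELE and 32.8 and 28.6 in SIT sedentary libraries. On the left it was 26.6, 10.7 and 21.7 in ELE and 29.7, 18.1 and 19.5 in sedentary libraries. On the right it was 25.7, 16.6 and 20.6 in ELE and 31.8, 12.8 and 21.1 in sedentary libraries. The SIT groups did not overlap, and the left and right groups did. The difference of the mean log2 ratio, ELE minus sedentary, was 0.20 in SIT, -0.25 on the left and 0.01 on the right. Two-sided exact permutation tests gave p values of 0.1, 0.7 and 1.0, and 0.3, 1.0 and 1.0 after Benjamini-Hochberg adjustment over the 3 comparisons. The smallest p these group sizes allow is 0.1. With all 8 SIT libraries, whose added values were 7.3 in ELE and 18.1 and 15.4 in sedentary mice, the difference was 0.07 with an exact permutation p of 0.857.

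**Figure D4:**
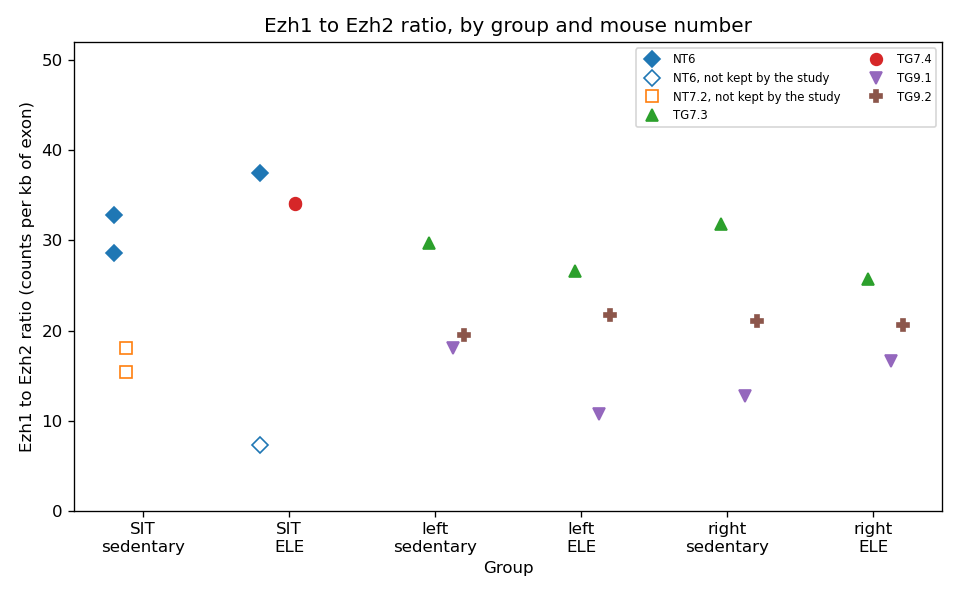
Ratio of Ezh1 to Ezh2 in counts per kilobase of exon, by group, with a symbol for each first part of the mouse number. Open symbols are the SIT libraries that the study did not compare, and the points of both TG7.4 mice nearly coincide. In each separately isolated group the TG7.3 mouse is highest and the TG9.1 mouse lowest.

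The ratio also followed the mouse number. Each separately isolated group held 1 mouse numbered TG7.3, 1 numbered TG9.1 and 1 numbered TG9.2; what the number stands for is not given in the sources used here. The 4 TG7.3 libraries had ratios of 25.7 to 31.8, the 4 TG9.2 libraries 19.5 to 21.7 and the 4 TG9.1 libraries 10.7 to 18.1, without overlap. A fit with the number tested beside hemisphere and exercise was added after this had been seen. At an unadjusted p under 0.05, 3 of 10 members differed between the numbers, Ezh1, Ezh2 and Rbbp7, against 11.4% of all genes. Ezh1 and Ezh2 form the ratio that prompted this fit, so these shares do not test whether the members differ more than other genes. Ezh1 averaged 74.9 ± 6.29 CPM in TG7.3, 71.9 ± 5.71 CPM in TG9.2 and 57.1 ± 7.42 CPM in TG9.1 libraries (SD, n = 4 each), with an adjusted p of 0.291 by edgeR. Ezh2 averaged 2.37 ± 0.168, 3.12 ± 0.257 and 3.61 ± 0.594 CPM in the same order, with an adjusted p of 0.347 by edgeR. Rbbp7 averaged 91.4 ± 4.86, 89.7 ± 2.22 and 104 ± 10.0 CPM, with an adjusted p of 0.332 by edgeR.

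Ezh1 was lowest and Ezh2 and Rbbp7 highest in the TG9.1 mice. Epop averaged 60.2 ± 12.9, 57.3 ± 10.5 and 43.8 ± 13.1 CPM, with an unadjusted p of 0.0904 and an adjusted p of 0.495 by edgeR. Of the 4 TG9.1 libraries, the left ELE one had the highest inhibitory neuron sum of the 17 libraries, 368 CPM, and the right sedentary one the next, 136 CPM. In the left ELE one, 301 CPM of that sum came from a single marker, Npy. The median of Npy over the 17 libraries was 3.28 CPM, so the sum there does not measure inhibitory neurons as a whole. Those 2 libraries had the lowest ratios of Ezh1 to Ezh2 among the 17, 10.7 and 12.8, and the lowest levels of Epop, 34.0 and 31.0 CPM. The part of these markers in the levels was not tested.

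The hemispheres were compared over both exercise groups. The columns of the count table are mouse numbers, and the hemisphere of each was taken from the sample quality list of the study. The order of the sample titles, which was not used, would assign the 12 separate libraries to the opposite hemispheres. With the assignment used, the mean normalised counts of the libraries equalled those tabulated for the same hemisphere for 548 of 548 left and 358 of 358 right genes, within 0.1%. With the hemispheres exchanged, 1 and 2 of these genes matched. By edgeR, 0 of 10 members were called, with 0 at an unadjusted p under 0.05, against 1.14% of all genes called. DESeq2 called 0 of 10, against 1.46%. The log2 difference, left minus right, lay between -0.02, in Jarid2, and 0.18 in the 9 members other than Phf19. Phf19 averaged 1.02 ± 0.286 CPM on the left and 0.779 ± 0.120 CPM on the right (SD, n = 6 each), a log2 difference of 0.40 ± 0.26 with an adjusted p of 1.0 by edgeR. The effect of exercise was not called as different between the hemispheres for any of the 10 members by edgeR, against 2.20% of all genes, or by DESeq2, against 2.06%. For Epop that difference, left minus right, was -0.16 ± 0.37 (95% interval -0.96 to 0.64), and for Mtf2 it was 0.24 ± 0.19 (95% interval -0.17 to 0.66).

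Between the isolations 1 of 10 members, Ezh2, was called in each exercise group. It was lower in SIT than in separate isolation in sedentary mice, 2.03 ± 0.345 CPM (SD, n = 2) against 3.00 ± 0.556 CPM (SD, n = 6). In ELE mice it was 1.95 ± 0.259 CPM (n = 3) against 3.06 ± 0.763 CPM (n = 6). In sedentary mice the highest SIT value was 2.27 CPM and the lowest after separate isolation 2.19 CPM, so that these groups overlapped. In ELE mice these values were 2.24 and 2.29 CPM. Ezh2 was the 1 of 10 members without overlap there, and in sedentary mice 2 of 10, Rbbp4 and Rbbp7, did not overlap. The share of all genes without overlap was not counted between the isolations. The log2 fold change was -0.56 ± 0.25 (95% interval -1.09 to -0.02) in sedentary mice, with an unadjusted p of 0.0439 and an adjusted p of 0.162 by edgeR. In ELE mice it was -0.64 ± 0.25 (95% interval -1.19 to -0.10), with an unadjusted p of 0.0236 and an adjusted p of 0.131 by edgeR. The call did not hold when any of 5 single libraries was left out in sedentary mice (NT6.305, TG9.1.1, TG9.1.2, TG9.2.3 or TG9.2.4), with log2 fold changes between -0.53 and -0.39. In ELE mice it did not hold without NT6.303, TG7.4.2 or TG9.1.4, with values between -0.62 and -0.51.

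Many genes differed between the isolations. Beside 1 of 10 members, 15.5% of all genes were called in sedentary mice, and beside 1 of 10, 12.8% were called in ELE mice, so that the members' share did not exceed that of all genes. With all SIT libraries the log2 fold change of Ezh2 was -0.20 ± 0.23 in sedentary and -0.07 ± 0.34 in ELE mice, and the gene was not called. In sedentary mice 1 of 10 members was then called, Mtf2, which was higher in SIT (log2 fold change 0.45 ± 0.15, adjusted p 0.0629 by edgeR), against 15.9% of all genes. In ELE mice 0 of 10 were called (10.9% of all genes), with 0 at an unadjusted p under 0.05. In sedentary libraries Rbbp7 was higher in SIT by 0.16 ± 0.07 on the log2 scale, with an unadjusted p of 0.0454 by edgeR, below the size limit for a call, and in ELE mice -0.04 ± 0.09.

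**Figure D5:**
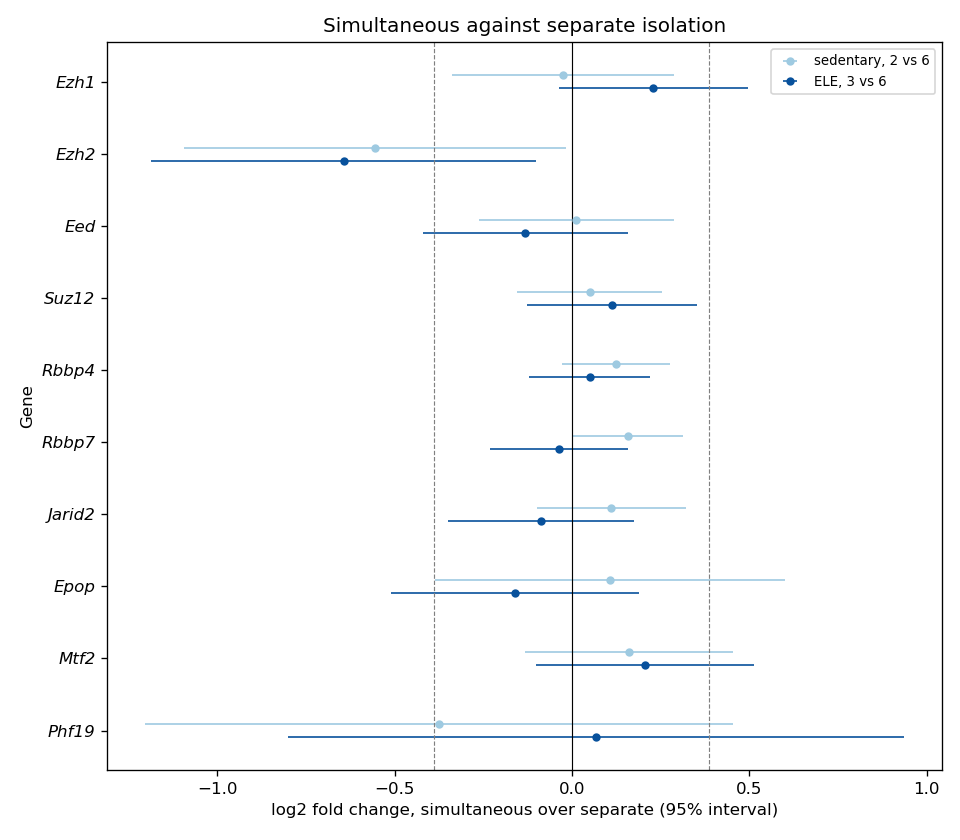
Log2 fold change of simultaneous over separate isolation with its 95% interval for the 10 PRC2 genes, in sedentary and in ELE mice. Dashed lines mark the threshold of 0.39 in both directions. Ezh2 is the single gene whose interval lies below 0 in both, -1.09 to -0.02 and -1.19 to -0.10.

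Markers of other cells differed between the isolations too. In sedentary mice 5 of 8 astrocyte markers were called lower in SIT and 7 of 8 inhibitory neuron markers higher, and in ELE mice 4 of 8 and 0 of 8. Of 8 excitatory neuron markers 2 were called lower in sedentary mice, and 2 lower and 1 higher in ELE mice. Their sum was between 7071 and 8112 CPM in SIT and between 8421 and 10947 CPM after separate isolation. The mitochondrial share of counts was between 0.245% and 0.523% in SIT and between 0.0704% and 0.122% after separate isolation. Neither of these ranges overlapped. Of 12 markers of proliferating or immature neural cells, in which Ezh2 is known to be high, 1 was called, higher in SIT, in either exercise group. The summed level of these 12 was between 159 and 210 CPM in SIT libraries and between 138 and 217 CPM after separate isolation. Sox2 had the highest median of the 12 over the 17 libraries, 58.6 CPM. Mki67 and Top2a, which mark division, had medians of 1.20 and 1.67 CPM and added little to the sum. The part of these cells and of the mitochondrial share in the level of Ezh2 was not tested. The mice, the tissue taken and the homogenization differed along with the isolation, and these cannot be told apart.

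The partners and opponents of PRC2 were read from lists of named genes. Of 4 further accessory genes tested, 0 were called for exercise in SIT, left or right libraries. Aebp2, the partner of Jarid2 in its form of the complex, had a mean of 8.09 CPM per kb over the 17 libraries, above that of Jarid2. On the left it averaged 84.6 CPM in ELE and 75.1 CPM in sedentary mice (log2 fold change 0.17 ± 0.07), with an unadjusted p of 0.0447 and below the size limit. Phf1, another Polycomb-like protein, had 8.50 CPM per kb, above Mtf2 and Phf19. Lcor was called lower in SIT than in separate isolation in both exercise groups, with log2 fold changes of -1.14 ± 0.27 and -0.68 ± 0.21. Its relative Lcorl was called higher in SIT in ELE mice, with 0.54 ± 0.22. These were 1 of 4 genes in sedentary and 2 of 4 in ELE mice, beside 15.5% and 12.8% of all genes. Ezhip was also listed and was not matched.

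The demethylases that remove the mark, Kdm6a and Kdm6b, and the related Y-linked Uty were not called for exercise in SIT, left or right libraries, 0 of 3 in each. Kdm6b, which is also an activity-responsive gene, had a log2 fold change of 0.08 ± 0.16 in SIT, 0.25 ± 0.18 on the left and 0.17 ± 0.13 on the right. Kdm6a was called lower in SIT than in separate isolation in ELE mice, at a log2 fold change of -0.48 ± 0.21, 1 of 3 genes beside 12.8% of all genes, with 0 of 3 called in sedentary mice beside 15.5%.

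Of 27 genes of Polycomb repressive complex 1 (PRC1) and the deubiquitinase that opposes it, 1 was called for exercise in SIT libraries, a share close to the 3.65% of all genes. Pcgf2, which encodes a RING-finger partner of the PRC1 ubiquitin ligase, fell in SIT ELE mice, with 12.4 CPM against 16.6 CPM and a log2 fold change of -0.42 ± 0.16 (adjusted p 0.905 by edgeR). Neither hemisphere had a call among the 27, 0 of 27 in each. Between the isolations 2 of 27 were called in sedentary mice and 4 of 27 in ELE mice, beside 15.5% and 12.8% of all genes. The share of the list was below that of all genes in sedentary mice and close to it in ELE mice. Kdm2b, which brings a PRC1 form to CpG islands, was called lower in SIT in both exercise groups, by -0.45 ± 0.10 and -0.43 ± 0.15. Phc1 was called lower in sedentary mice, by -0.39 ± 0.09. In ELE mice Yaf2 was called higher, by 0.44 ± 0.07, Rnf2, a PRC1 ubiquitin ligase, higher by 0.42 ± 0.10, and Bcor lower, by -0.61 ± 0.16.

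Genes known as textbook targets of Polycomb repression were nearly silent in these libraries. Of 47 such genes, among them Hox genes, 28 had no count in any of the 17 libraries and 44 stayed below 1 CPM in each. Among the exceptions were Pax2, with 0.904 to 2.24 CPM, and Twist1, with 0.558 to 2.00 CPM. Of the 4 that passed the filter in each hemisphere and the 3 that did so in SIT libraries, 0 were called for exercise. Pax2 was called lower in SIT than in separate isolation in sedentary mice, 0.912 against 1.51 CPM, 1 of 4 genes tested beside 15.5% of all genes. In the rest a change by exercise was not detectable at this depth.

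The genes whose levels were most like those of the catalytic subunits were found among 14126 genes whose mean was 1 CPM or more, by Pearson's r of log2(CPM + 0.5) over the 17 libraries. Libraries of a group share their isolation, and depth and marker content differ between libraries, so that r is a description only. For Ezh1 they were Dhx40 (r = 0.90), Elmod1 (r = 0.89) and Tppp (r = 0.88). For Ezh2 they were Anxa5 (r = 0.90), Map3k9 (r = 0.88) and Smad5 (r = 0.88). Between members, r was -0.48 for Ezh1 with Ezh2, 0.65 for Suz12 with Mtf2 and 0.51 for Ezh1 with Epop.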

How the data were processed

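TRAP-seq counts of 20 libraries from Emx1-NuTRAP mice were used, grouped by the labels and the study's quality table. The authors aligned reads to GRCm38 with STAR 2.7.3a, removed duplicates with Picard 1.87, counted reads over exons by strand and deposited unnormalized counts per gene. Removing duplicates can lower counts of abundant genes. Libraries of a group differed by more than counting error (chi-square per degree of freedom 18.9 to 423 over 24 pairs). Columns are mouse numbers, which that table ties to groups and hemispheres, not to numbered replicates. A second table of 24 wild-type columns and the CUT&RUN data were not analysed here.

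The members and lists were chosen with earlier results of these data known. Symbols, coordinates and lengths came from GENCODE, which matched 55154 of 55335 identifiers without version. edgeR 4.0.16 in R 4.3.3 was used with filterByExpr, TMM and the quasi-likelihood test, fitted on the groups compared and adjusted by Benjamini-Hochberg over all genes. The SE is the absolute log2 fold change over the square root of F. Displayed CPM use TMM over all 20 libraries. Named were all members, up to 5 called genes of each list, and the 3 genes most like Ezh1 and Ezh2. Alternatives were DESeq2 1.42.0, median-of-ratios size factors, no filter, a fold change limit of 0.38, all SIT libraries, the mouse number as covariate, other lengths, library totals and leaving out each library. The fits were tested on simulated data. Intervals are at 95%.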

Additional observations from a re-analysis of the deposited data

Results flagged for a closer look

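SIT ELE mouse NT6.304, which the study did not compare, stood apart from the other 3 SIT ELE libraries in 3 of the 22 checks made over the 2 SIT groups of 4. The paper left out 1 ELE mouse because it lay far from the other 3 in a principal component analysis. For a library removed for standing apart, a chance rate of about 1 in 20 is no measure. The flags for Ezh2 and for the ratio also share the same Ezh2 value. The Ezh2 level of NT6.304 was 5.86 CPM, against 1.74 to 2.24 CPM in the others. Its Rbbp7 level was 148 CPM, against 91.8 to 100 CPM. Its ratio of Ezh1 to Ezh2 was 7.3, against 34.1 to 37.5.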

How the results depend on the processing

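No paired analysis was possible because the columns carry none of the replicate numbers in the labels, so this concerns those numbers alone. Like-numbered mice of the separate groups, 3 per group, were fitted together with the leading part of the mouse number as covariate. Counts of members called were unchanged under all alternatives except these. With all SIT libraries, 0 members were called for exercise in SIT and 0 for isolation in ELE mice. On the left, DESeq2, no filter on low counts and the mouse number as a covariate each called 1 (Epop). Without the filter, 0 were called for isolation in sedentary mice. The fit over 17 libraries, added after the data had been seen, called 1 (Epop) for exercise. Leaving out 1 library gave 0 to 1 members on the left (1 without TG7.3.2), on the right and over both hemispheres (1 without TG9.1.1 in either). It gave 0 to 1 for isolation in sedentary mice (0 without NT6.305, TG9.1.2, TG9.2.4, TG9.1.1 or TG9.2.3) and 0 to 1 in ELE mice (0 without NT6.303, TG7.4.2 or TG9.1.4), where Ezh2 lost its call.

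Counts over all genes were 665 in SIT (1350 with all 8 libraries, 1179 within the mice numbered NT6, NT6.304 included), 367 on the left (552 with DESeq2, 691 without filter), and 347 on the right (715 without filter). They were 360 over both hemispheres (615 with DESeq2, 961 without filter), 208 for hemisphere (426 and 663) and 414 for the interaction (1041 without filter). Leaving out 1 library gave 355 to 1086, 220 to 945, 308 to 643, 294 to 589, 194 to 437 and 354 to 718, in this order. The cause was not tested. The Ezh1 to Ezh2 difference in SIT moved from 0.202 to 0.0715 with all SIT libraries. No called member changed sign. Members that were not called did so in 118 of the 1120 values computed under alternatives, 0 of them at an unadjusted p under 0.05 by edgeR or DESeq2. In SIT the mice numbered NT6 gave -0.13 for Ezh1, 0.92 for Ezh2, 0.28 for Rbbp7 and 0.38 for Jarid2. The Ezh1 to Ezh2 difference changed sign in 3 of 21. Depth limits Ezh2 and Phf19, with as few as 91 and 24 counts.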
